A study of Mus musculus with 24 samples.

Results

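Primitive endoderm genes were followed in mouse embryonic stem cells that were kept in an undifferentiated state. The members are the 10 rows of the count table, of 48985, whose Ensembl identifiers carry the symbols Gata6, Gata4, Sox17, Sox7, Foxa2, Dab2, Pdgfra, Col4a1, Col4a2 and Lama1 in GENCODE M21. They were listed by name, and earlier results of these data were known when the list was made. All 10 symbols matched a row.

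The cells were F121/9, a female F1 hybrid embryonic stem cell line that carries a 129/Sv and a CAST/EiJ genome, so reads over variants can be assigned to an allele. All cells were grown without serum in 2i+LIF on gelatin, with the MEK inhibitor PD0325901 and the GSK-3β inhibitor CHIR99021. The series covers 5 recombinations and asked how expression changed in recombined clones against their parental lines. Poly(A) RNA was sequenced from 24 libraries in 12 groups of 2 replicates. There were 5 parental groups (d3, d6, i7, i10 and i12) and 7 recombined groups, namely d3 clone 12, d3 clone 21, d6 clone 16, i7 clone 7, i7 clone 12, i10 clone 18 and i12 clone 10. Each recombined group is 1 clone, so a difference between a clone and its parental line cannot be told apart from a difference of that single clone. The parental group of each recombination is a group of its own. The genotype label says only parental or recombined, and the labels used here do not describe the alleles that were engineered. The design calls the replicates biological duplicates.

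Primitive endoderm is the cell layer that separates from the epiblast in the late blastocyst and later forms parietal and visceral endoderm. The transcription factors GATA6, SOX17, GATA4 and SOX7 appear in sequence in these cells, and FGF signalling through MEK and ERK drives the choice. The cells then express the receptor PDGFRA and the endocytic adaptor DAB2, and secrete the laminin and type IV collagen of their basement membrane. Laminin chains are also made by the epiblast and by embryonic stem cells.

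Libraries held between 3286819 and 15581094 allelic counts. The 8 libraries of i10 and i12 held at most 6920899, and those of d3 at least 10383315. Levels are given as CPM, counts scaled to the library total after TMM normalisation, and as CPM per kilobase of exon where genes are compared. A count of 3 was taken as the floor of detection, which is 0.199 to 0.907 CPM depending on the library. The 12 naive stem cell markers, among them Nanog, Pou5f1, Esrrb and Zfp42, were expressed in every library and summed to between 6427 and 9186 CPM. The lists of markers of other cells summed to less, but some of their genes were counted in every library. Of the 6 visceral endoderm markers, Ttr and Apoa4 had no count in any library and Afp had at most 1. Hnf4a had 0.242 to 5.04 CPM, and the list summed to 0.708 to 8.11 CPM. The 5 parietal endoderm markers summed to 59.3 to 114.8 CPM, nearly all of it Sparc (58.3 to 113.8 CPM), while Snai1 was at 0 and Pth1r reached at most 2 counts. The 7 definitive endoderm and mesendoderm markers summed to 17.2 to 69.3 CPM, with T at 3.32 to 47.8 CPM. The 6 trophoblast markers summed to 2.18 to 25.2 CPM, with Tfap2a at 1.69 to 16.1 CPM. The 8 fibroblast markers summed to 5.74 to 28.9 CPM, with Thy1 at 3.32 to 24.5 CPM and Dcn at 0.

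Promoter sequence from RefSeq (GRCm38.p6), from 250 bases before to 50 after an annotated start, was given for 5 of the 10 members in 8 windows. Those of Col4a1 and Col4a2 are shown because the genes are transcribed away from each other from a common region, chr8:11312777-11313076 on the minus strand and chr8:11312555-11312854 on the plus strand. Each is written 5′ to 3′ in its own direction. The capitals mark the 78 bases, chr8:11312777-11312854, that both windows contain, and the stretch in the Col4a1 window is the reverse complement of that in the Col4a2 window. The windows of Dab2 are shown because the alleles of this gene differed most among the members. They are chr15:6299539-6299838 and chr15:6386498-6386797, both on the plus strand and 86959 bases apart. Capitals there mark GATA motifs on either strand. The search used AGATAA first, then its variant TGATAA, then the form AGATAG, and last the form TGATAG.
Col4a1: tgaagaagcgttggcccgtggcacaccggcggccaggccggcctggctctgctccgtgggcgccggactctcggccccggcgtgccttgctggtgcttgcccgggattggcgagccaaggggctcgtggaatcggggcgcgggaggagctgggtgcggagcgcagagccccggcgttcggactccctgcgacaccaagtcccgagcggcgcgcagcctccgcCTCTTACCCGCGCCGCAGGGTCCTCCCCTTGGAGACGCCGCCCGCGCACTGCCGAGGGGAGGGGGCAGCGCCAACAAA
Col4a2: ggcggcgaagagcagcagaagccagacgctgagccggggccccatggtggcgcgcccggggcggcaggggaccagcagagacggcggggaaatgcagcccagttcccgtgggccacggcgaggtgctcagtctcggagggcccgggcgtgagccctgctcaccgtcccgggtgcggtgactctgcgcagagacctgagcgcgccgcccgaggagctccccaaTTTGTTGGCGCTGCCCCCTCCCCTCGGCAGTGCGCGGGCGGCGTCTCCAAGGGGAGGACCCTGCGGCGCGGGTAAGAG
Dab2 first window: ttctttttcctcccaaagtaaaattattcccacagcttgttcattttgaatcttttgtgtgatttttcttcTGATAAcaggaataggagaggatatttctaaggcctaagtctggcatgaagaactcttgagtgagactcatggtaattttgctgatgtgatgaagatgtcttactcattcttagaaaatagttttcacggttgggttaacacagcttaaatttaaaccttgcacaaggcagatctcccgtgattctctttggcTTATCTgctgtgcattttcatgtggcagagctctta
Dab2 second window: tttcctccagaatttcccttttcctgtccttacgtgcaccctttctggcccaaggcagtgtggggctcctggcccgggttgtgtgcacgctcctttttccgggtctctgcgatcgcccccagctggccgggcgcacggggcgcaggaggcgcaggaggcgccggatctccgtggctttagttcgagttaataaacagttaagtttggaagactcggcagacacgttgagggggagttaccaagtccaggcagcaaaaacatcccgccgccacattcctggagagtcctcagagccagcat
The first Dab2 window held 2 GATA motifs, TGATAA at position -179 from the start and AGATAA on the minus strand at position 15. The second Dab2 window and the windows of Col4a1, Col4a2 and Pdgfra held none of the 4 motifs, and 1 of the 3 Foxa2 windows held AGATAA at position -183. Of all 32851 promoter windows of this length, 29.8% held at least 1. A match is a run of letters and was not tested for binding. The Col4a1 and Col4a2 windows held 37 and 33 CG pairs, against a median of 7 over all windows, and the first and second Dab2 windows held 2 and 19.

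Of the transcription factors, Gata4 was the only one with more than the floor in every library. Gata6 (chr18:11052064-11085635, GRCm38), the early driver of the lineage, had 21 counts over all 24 libraries, at most 3 in any of them, and 0 in 11 libraries. Sox17 (chr1:4490931-4497354), an HMG-box factor of the layer, had 29 counts in all, with 22 libraries at or under the floor and a highest value of 5 counts. Foxa2 (chr2:148042877-148046969), a forkhead factor of visceral and definitive endoderm, had 2 counts in all, 1 in d3 clone 12 and 1 in i12 clone 10. Both Gata6 and Foxa2 were at or under the floor in every library. In such bulk RNA, fewer expressing cells and less RNA per cell cannot be told apart.

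Gata4 (chr14:63198922-63271692), a zinc-finger factor that acts with GATA6, was low but present in every library, from 5 to 49 counts (0.515 to 7.40 CPM, median 2.16). Sox7 (chr14:63943673-63950732), a transcription factor that marks later primitive endoderm, ranged from 0 to 1.90 CPM, with 11 libraries at or under the floor. Pdgfra (chr5:75152292-75198215), the receptor for PDGF-A and a surface marker of the layer, ranged from 0.177 to 1.91 CPM, with 10 libraries at or under the floor. Its ligand Pdgfa stood at 82.1 to 244.2 CPM. Dab2 (chr15:6299788-6440712) ranged from 0.198 to 9.99 CPM with a median of 2.92.

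Lama1 and Col4a1, of the basement membrane genes, had the highest median levels per length among the members. Lama1 (chr17:67697259-67822647), the laminin alpha 1 chain, had 950 to 6424 counts in each library, or 173.7 to 449.3 CPM. Per length its median was 30.1 CPM per kb, against 0.953 for Col4a1 (chr8:11198423-11312826), 0.553 for Gata4, 0.470 for Col4a2 (chr8:11312805-11449287) and 0.397 for Dab2. Sox7 followed at 0.113 and Pdgfra at 0.0585 CPM per kb. The per-length levels of Lama1, 17.95 to 46.4, did not overlap those of any other member, of which the highest was 2.75 for Col4a1. The ranges of Col4a1, Gata4, Col4a2 and Dab2 overlapped over the 24 libraries. Counts are of reads assigned to an allele, and how reads without a variant were treated is not given in the sources used here, so levels per length may also depend on how many variants a gene carries.

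**Figure D1:**
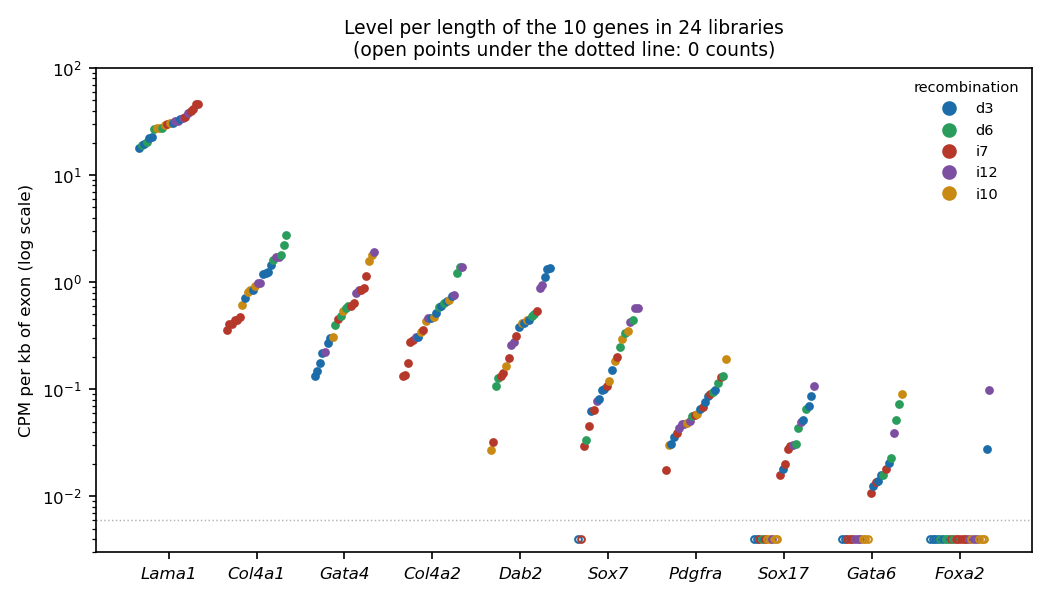
CPM per kilobase of exon (log scale) of the 10 genes, 1 point for each of the 24 libraries in rising order, coloured by recombination. Lama1 lies above all others at 17.95 to 46.4 CPM per kb, and open points under the dotted line are libraries with no count, 22 of them for Foxa2.

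Partners of these chains covered a wide range of levels. Of the 24 basement membrane genes listed, Nid1 (nidogen 1) had the highest median level per length at 111.4 CPM per kb, followed by Nid2 (90.9) and Lamc1, the laminin gamma 1 chain (83.4). Lamb1, the beta 1 chain that joins LAMA1 and LAMC1 in laminin-111, stood at 8.31 CPM per kb. Pxdn (0.805), Itgb4 (0.770), Lamb3 (0.185) and Lama4 (0.171 CPM per kb) were low, and Lama2 had at most 4 counts. Other collagen IV chains were nearly absent: Col4a5 had no count in any library and Col4a3, Col4a4 and Col4a6 were at or under the floor in all. Of the 30 other primitive and extraembryonic endoderm genes, Apoe (53.7 CPM per kb) and Sparc (23.6) had the highest medians, and 6 were at or under the floor in every library (Ttr, Afp, Apoa1, Rspo3, Pth1r and Snai1).

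Differences between the parental lines came first for Col4a1, which encodes the alpha 1 chain of type IV collagen and was highest in d6 and lowest in i7. The d6 parental libraries had 20.5 and 13.4 CPM, those of i12 7.38 and 12.8, and those of d3 9.26 and 5.35. The i10 parental libraries had 6.30 and 6.04 CPM and the i7 parental libraries 3.02 and 3.01. The d6 values lay above all others and the i7 values below all others, while the d3 values overlapped those of both i10 and i12. In the edgeR quasi-likelihood test over all 5 lines jointly, Col4a1 was the only one of the 7 members tested that was called (Benjamini-Hochberg adjusted p = 0.00786). Over all genes, 1079 of 16253, or 6.64%, were called. Gata6, Sox17 and Foxa2 did not pass the filter on low counts and were not tested.

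In pairs of parental lines, 4 of 70 member tests were called, against 3003 of 162530 tests over all genes (1.85%). Col4a1 was higher in d6 parental than in i7 parental by 2.49 on the log2 scale (SE 0.385, adjusted p = 0.00415; 1.13% of all genes were called in this pair). It was lower in i7 parental than in i12 parental, with a log2 difference of -1.73 (SE 0.394, adjusted p = 0.0300; 2.2% of all genes). The first call was lost without d6 parental replicate 1 (log2 2.14, adjusted p = 0.0683) or without either i7 parental library (log2 2.47 and 2.48, adjusted p = 0.0984 and 0.0831). The second was lost without either i7 parental library (-1.71 and -1.73, adjusted p = 0.270 and 0.134) or without i12 parental replicate 2 (-1.28, adjusted p = 0.249). With CAST counts alone, d6 against i7 stayed called (log2 2.45, edgeR adjusted p = 0.00647) and i7 against i12 was not (-1.46, 0.0902). With 129S1 counts alone, d6 against i7 was not called (2.825, 0.0790). DESeq2 called both pairs (adjusted p = 1.80e-06 and 0.00483). The joint call of Col4a1 was lost in the fit of the parental libraries alone (adjusted p = 0.0932). That fit called 0 members and 85 of 14842 genes (0.573%). The joint call was also lost with 129S1 counts alone (adjusted p = 0.0931), where 5.1% of all genes were called.

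The other 2 calls were of Gata4. The d3 parental libraries had 0.579 and 0.515 CPM, those of i12 3.33 and 7.40, and those of i10 2.10 and 6.95. The d6 parental libraries had 1.87 and 2.36 CPM and those of i7 2.37 and 2.48. All d3 parental values lay below all values of the other 4 lines, and the i12 and i10 replicates lay far apart from each other. Gata4 was lower in d3 parental than in i12 parental (log2 -3.25, SE 0.762, adjusted p = 0.0220; 4.96% of all genes) and than in i10 parental (log2 -2.96, SE 0.772, adjusted p = 0.0448; 3.35% of all genes). The first was lost without d3 parental replicate 1 (-3.31, adjusted p = 0.0628) or 2 (-3.17, 0.104), or without i12 parental replicate 2 (-2.59, 0.278). The second was lost in 17 of 24 fits that left out 1 library, namely any of the 16 from d3, d6 or i7, or i10 parental replicate 2, with log2 differences from -3.63 to -1.92 over the 24. The d3 clones were also low in Gata4, at 0.860 and 1.17 CPM in clone 12 and 1.07 and 0.682 CPM in clone 21, all below every library of d6 and i7.

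Col4a2 and Lama1 had no pair of parental lines called by edgeR, while DESeq2 called some, given below with their values. Col4a2, the alpha 2 chain, had 9.16 and 4.25 CPM in d6 parental, 4.998 and 9.18 in i12 parental, and 2.37 and 0.885 in i7 parental. The i7 values were below those of d6 and i12, with a log2 difference of 2.10 for d6 over i7 (SE 0.540, adjusted p = 0.0761). They overlapped those of d3 parental (3.97 and 2.06 CPM) and i10 parental (2.29 and 4.53 CPM). Lama1 was instead highest in i7 parental, at 445.8 and 400.6 CPM, with 308.2 and 370.8 in i12 parental, 220.2 and 215.2 in d3 parental and 185.5 and 263.0 in d6 parental. The i7 parental libraries lay above all other parental libraries, with a log2 difference of -0.96 for d3 against i7 (SE 0.262, adjusted p = 0.0503). DESeq2 called Col4a2 in d6 against i7 (adjusted p = 0.0210) and in i7 against i12 (0.0132), and Lama1 in d3 against i7 (0.0129) and in d6 against i7 (0.0401), where it called 4.57% of all tests of pairs. Joint adjusted p values were 0.0607 for Col4a2, 0.0669 for Gata4 and 0.0735 for Lama1. DESeq2 called these 3 beside Col4a1 in the joint test (4 of 7, against 15.5% of all genes), and the edgeR fit with no filter on low counts also called Dab2 (5 of 10, against 11.9% of all genes).

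**Figure D2:**
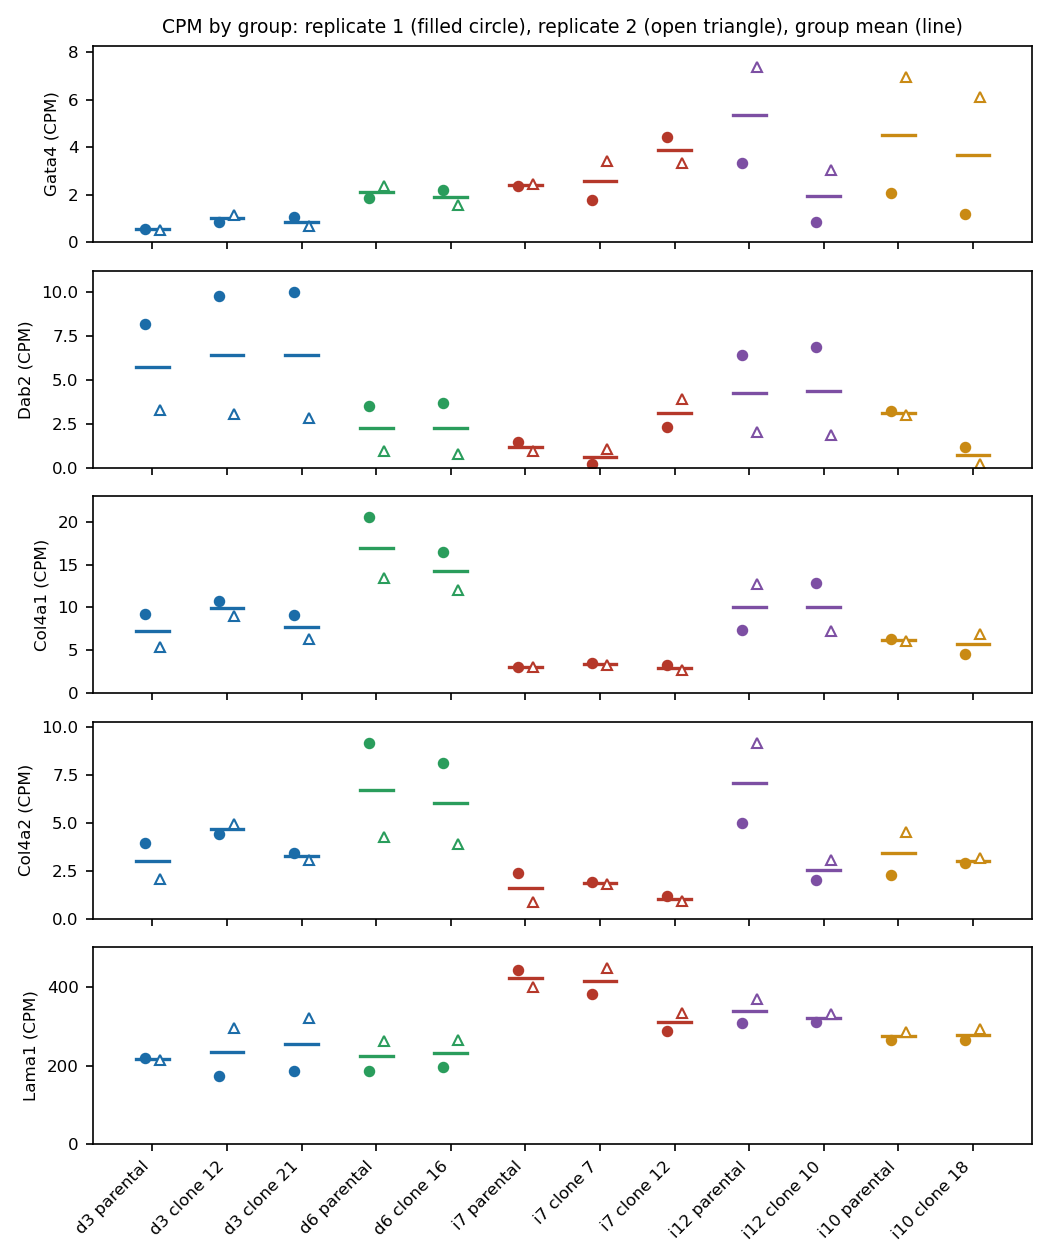
CPM of Gata4, Dab2, Col4a1, Col4a2 and Lama1 in the 12 groups, with a filled circle for replicate 1, an open triangle for replicate 2 and a line at the group mean, coloured by recombination. Both d6 groups are high in Col4a1 and all i7 groups are low, while replicate 1 of Dab2 lies above replicate 2 in 10 of 12 groups.

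Some partners of the members also differed among parental lines. Of 19 basement membrane partners tested, 3 were called jointly (Itga6, Lamb1 and Pxdn), against 6.64% of all genes. Lamb1 had a mean of 155.1 ± 3.21 CPM (SD, n = 2) in i12 and 140.5 ± 3.41 in i10, against 70.1 ± 7.76 in i7 and 69.1 ± 12.4 in d3. Its order thus differed from that of Lama1, which was highest in i7. Itga6, a laminin-binding integrin chain, was lowest in d3 at 109.1 ± 25.5 CPM, against means of 210.5 to 232.3 in the other 4 lines. Pxdn encodes peroxidasin, which crosslinks collagen IV, and had 20.1 ± 11.6 CPM in i12 and 4.70 ± 3.88 in d3.

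Of 19 other primitive and extraembryonic endoderm genes tested, 4 were called jointly, against 6.64% of all genes: Amn, Cited1, Krt8 and Sparc. Sparc, a collagen-binding matrix protein, was higher in i10 (107.1 ± 1.48 CPM, SD, n = 2) and i12 (102.2 ± 6.90) than in i7 (62.2 ± 5.41). Krt8, a keratin of simple epithelia, had 32.7 ± 8.33 CPM in i12 and 10.4 ± 1.13 in d3. Amn, the membrane anchor of the visceral endoderm receptor cubilin, had 3.02 and 3.10 CPM in i7 and 0.104 and 0 in d6, while Col4a1 was higher in d6 than in i7. The summed parietal list followed Sparc, with 62.8 CPM in i7 parental and 109.0 in i10 parental, and the summed fibroblast list was lowest in d6 parental at 8.06 CPM, where Col4a1 was highest. The part of other cell types in the member values was not tested.

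In the FGF and MAPK list, 2 of 26 genes tested were called jointly, a share near the 6.64% called over all genes. They were Etv4 and Etv5, transcription factors induced by ERK. Etv4 had 34.8 ± 5.36 CPM in d3 parental, 14.3 ± 1.59 in i7 and 2.69 ± 2.94 in i10 (SD, n = 2). Etv5 had 1527 ± 30.5 CPM in d3 and 645 ± 210.7 in i12. Gata4, by contrast, was lowest in d3. Of 4 PDGF genes tested, 2 were called jointly (6.64% of all genes), Pdgfa and Pdgfrb: Pdgfa was highest in d3 at 200.9 ± 61.2 CPM and lowest in i10 at 94.0 ± 9.82, and Pdgfrb was highest in d6 at 8.11 ± 1.46 and lowest in i10 at 0.874 ± 0.382.

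No member was called in any clone against its parental line. Of 49 member tests in 7 comparisons, edgeR called 0, and 2 had an unadjusted p under 0.05; DESeq2 called 0 as well. Over all genes, 17 of 113771 tests were called (0.0149%). The smallest p belonged to Col4a2 in i12 clone 10, with 2.04 and 3.07 CPM against 4.998 and 9.18 in i12 parental. These values did not overlap, and the log2 difference was -1.49 (SE 0.554, adjusted p = 1). It was -2.04 with 129S1 counts alone and -1.14 with CAST counts alone. The other genes of chromosome 8, where Col4a2 lies, had a summed 129S1 share of 53.49% and 54.85% in i12 parental. That share was 50.56% and 50.77% in i12 clone 10 and 48.68% to 50.97% in the other groups. A link of this share to Col4a2 was not tested.

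Pdgfra had 1.30 and 0.909 CPM in i7 clone 7 against 0.394 and 0.177 in i7 parental. The log2 difference was 1.95 (SE 0.769, adjusted p = 1), but the parental libraries had 3 and 2 counts, at or under the floor. From the summed counts of 24 and 5, the ratio of CPM was 3.99 (exact 95% interval 1.49 to 13.4, counting error only). Gata4 had 0.874 and 3.07 CPM in i12 clone 10 against 3.33 and 7.40 in i12 parental, a log2 difference of -1.52 (SE 0.722, adjusted p = 1). Both i12 clone 10 values lay below both parental values, yet the clone's libraries themselves differed widely.

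The precision differed among members. For Lama1 the 7 log2 differences ranged from -0.44 to 0.23 with SE of 0.260 to 0.262, and for Col4a1 from -0.25 to 0.43 with SE of 0.349 to 0.403. For Dab2 they ranged from -2.22 to 1.40 with SE up to 1.22, and for Sox7 from -1.84 to 0.61 with SE up to 1.17. Changes of those sizes were therefore not resolved for Dab2 and Sox7 in this fit, which leaves the replicate numbers out. A test of whether the effects of the clones differed from each other called 0 members and 10 of 16253 genes (0.0615%). In that test 0 members had an unadjusted p under 0.05. With the replicate block, an alternative given below, the SE of Dab2 fell to between 0.301 and 0.638. Its log2 difference was then 1.43 in i7 clone 12 (SE 0.414, edgeR adjusted p = 0.0508) and -2.19 in i10 clone 18 (SE 0.638). Neither was called, and for Sox7 the SE still reached 1.05.

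**Figure D3:**
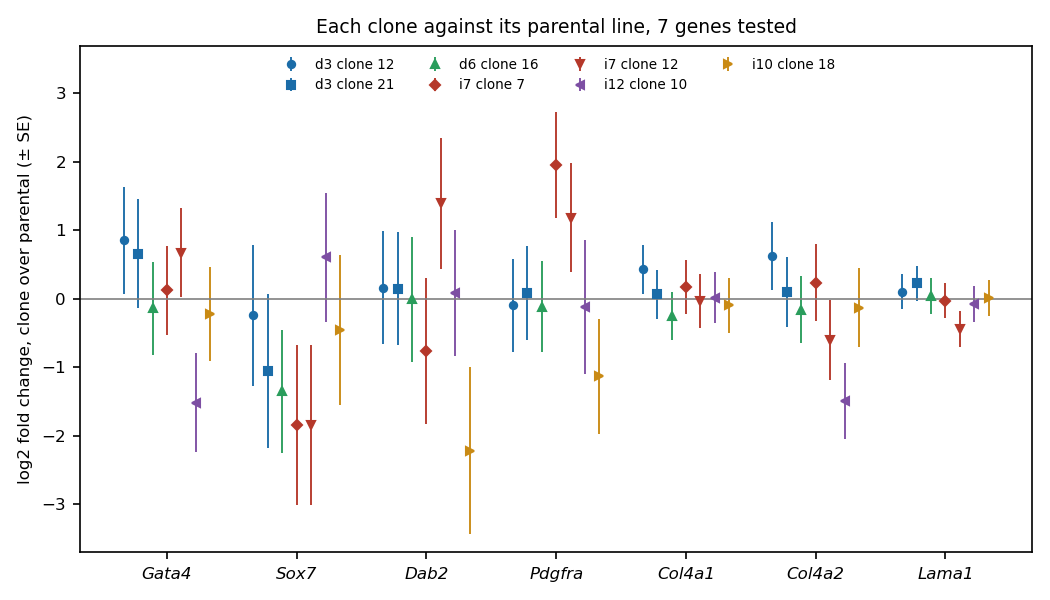
Log2 fold change of each clone over its parental line with its standard error, for the 7 genes tested, 1 symbol per clone. Col4a1 and Lama1 lie near 0, and the widest errors are those of Dab2 and Sox7, up to 1.22 and 1.17.

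Genes around the members were not called either. In the 7 clone comparisons, edgeR called 0 of 133 tests of other primitive and extraembryonic endoderm genes, 0 of 133 of basement membrane partners, 0 of 182 of FGF and MAPK genes and 0 of 28 of PDGF genes. Unadjusted p values under 0.05 numbered 6, 5, 5 and 2, against 2.30% of tests over all genes. Over the 7 clones, the median log2 difference of the 7 members tested ranged from -0.22 to 0.16, that of the 19 other endoderm genes from -0.12 to 0.28 and that of the 19 basement membrane partners from -0.19 to 0.28. The median over all genes ranged from -0.01 to 0.01.

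Between the 2 clones of a recombination, 0 of 14 member tests were called by edgeR and 0 by DESeq2, and 1 had an unadjusted p under 0.05. Over all genes, 23 of 32506 tests were called (0.0708%). Dab2 had 2.32 and 3.94 CPM in i7 clone 12 and 0.237 and 1.05 in i7 clone 7, where replicate 1 had 2 counts. The log2 difference was 2.15 (SE 0.982, adjusted p = 0.579), and it was called without the filter on low counts (adjusted p = 0.0194). Lama1 differed by -0.41 (SE 0.260, adjusted p = 0.771), and Col4a2 by -0.84 (SE 0.566, adjusted p = 0.796).

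Dab2 differed between the replicates of most groups. The replicates of d3 parental had 8.19 and 3.29 CPM, those of d3 clone 12 had 9.79 and 3.05, and clone 21 followed with 9.99 and 2.81. In d6 parental they had 3.54 and 0.945 CPM, in d6 clone 16 3.704 and 0.784, in i12 parental 6.43 and 2.04, and in i12 clone 10 6.84 and 1.89. All d3, d6 and i12 groups thus had the higher value in the library numbered 1, whether parental or clone.

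The i10 groups and i7 parental had the higher value there too, with 3.24 and 3.02 CPM in i10 parental, 1.21 and 0.198 in i10 clone 18 and 1.45 and 0.973 in i7 parental. Both i7 clones had the higher value in the library numbered 2. Jointly over the 5 recombinations, the replicate numbers differed for 4 of 7 members: Dab2 (edgeR adjusted p = 0.000105), Gata4 (0.0102), Lama1 (0.0177) and Col4a2 (0.0235). Over all genes 46.2% were called, so such a call was common. Between replicates 2 and 1, Dab2 differed by -1.61 on the log2 scale in d3 (SE 0.249), by -2.07 in d6 (SE 0.453), by -1.76 in i12 (SE 0.442), by -0.58 in i10 (SE 0.599) and by 0.59 in i7 (SE 0.363). These differences differed among the recombinations for 3 of 7 members, Dab2, Gata4 and Col4a2, against 24.7% of all genes. Leaving out single libraries, Gata4 lost its joint call without either i10 clone 18 library (adjusted p = 0.0738 and 0.0762). Col4a2 lost it without any of the 4 d6 libraries or either i12 parental library (0.0596 to 0.102). Lama1 lost it without either d3 clone 21 library, either d6 parental library or d6 clone 16 replicate 2 (0.0500 to 0.0797).

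The pair of collagen IV genes varied together. Per length, Col4a1 exceeded Col4a2 in all 24 libraries, with a ratio from 1.13 in i7 parental replicate 1 to 5.57 in i12 clone 10 replicate 1 and a median of 2.03. Pearson's r between their log2 CPM was 0.833 over the 24 libraries and 0.901 over the 12 group means. These points share libraries and depth, and the genes overlap by 22 bases at their starts on opposite strands, so r is a description only. Col4a1 was lower in all 6 i7 libraries than in any of the other 18, and Col4a2 was lower there than in most of them. The i12 clone 10 libraries departed from this, with Col4a1 at 12.8 and 7.31 CPM, close to those of i12 parental, and Col4a2 at 2.04 and 3.07, below them.

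**Figure D4:**
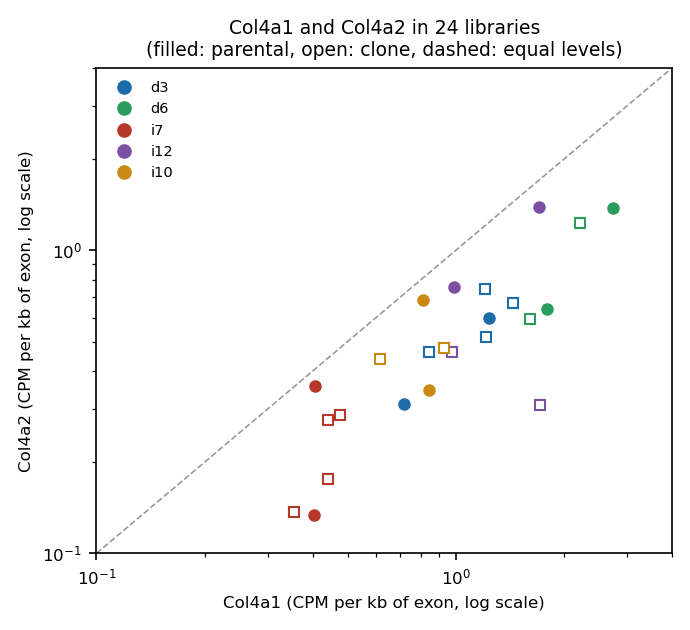
Col4a1 (horizontal) against Col4a2 (vertical), both in CPM per kilobase of exon on log scales, 1 point per library, filled for parental and open for clones. All 24 points lie below the dashed line of equal levels, the i7 libraries are lowest in Col4a1, and i12 clone 10 replicate 1 lies farthest below it at a ratio of 5.57.

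Lama1 went the other way, with r = -0.632 against Col4a1 and -0.546 against Dab2 over the 24 libraries, and r = 0.449 with Gata4. Among the 10739 genes that averaged 50 counts or more, the patterns most like that of Col4a1 over the 24 libraries were those of Usp10, a deubiquitinase (r = 0.929), Fig4 (0.912) and Idh1 (0.892). Those most like Lama1 were Arhgef2 (r = 0.913), Zfp664 (0.911) and Xrn1 (0.902). No collagen or laminin gene was among these 6, but Col4a2, with a mean of 31.7 counts, was not among the genes compared.

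The alleles of the members were unequal in several cases, and Dab2 was the extreme. Of its 803 counts over all libraries 7 were from 129S1, a share of 0.872% (95% Wilson interval 0.423 to 1.79, counting error only), and 19 libraries had no 129S1 count at all. In the parental lines 0 of 255 counts were from 129S1, which allows a share of up to 1.18% (3 counts of the total). Of 13333 autosomal genes with at least 100 parental counts, 1.51% had a 129S1 share that low. No 129S1 value exceeded 2 counts in a library, so the replicate and clone differences in Dab2 above are differences of CAST counts. Chromosome 15 as a whole had a 129S1 share of 44.4% to 47.0% in all libraries. Dab2 overlaps the antisense gene Gm16311, and whether counting used strand is not given in the sources used here.

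Sox7 was the reverse, with 98 of 110 counts from 129S1 (89.1%, Wilson interval 81.9 to 93.6). In the parental lines 52 of 55 counts were from 129S1. Gata4 was near balance there, with 77 of 168 from 129S1 (45.8%, 38.5 to 53.4). The collagen genes favoured CAST: 137 of 637 parental Col4a1 counts (21.5%, 18.5 to 24.9) and 91 of 295 Col4a2 counts (30.8%, 25.9 to 36.3) were from 129S1. Lama1 had 9491 of 21217, or 44.7% (44.1 to 45.4), with library shares from 41.95% to 47.0%. The median autosomal gene stood at 50.5%.

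Both members that averaged 10 or more counts on each allele, Col4a1 and Lama1, were called for their allelic ratio in parental lines, against 7470 of 10795 genes (69.2%). The log2 ratio of 129S1 to CAST was -1.86 for Col4a1 (SE 0.205, edgeR adjusted p = 8.20e-08) and -0.32 for Lama1 (SE 0.0351, adjusted p = 9.36e-08). CAST counts exceeded 129S1 counts in all 24 libraries for both. With a filter of 10 counts over both alleles, chosen after seeing the data, Col4a2 (log2 -1.26, SE 0.247, adjusted p = 8.20e-05) and Dab2 were called too, and Gata4 (-0.22, SE 0.279, adjusted p = 0.497) was not. Preference of the alignment for a genome and unequal expression cannot be told apart in these counts.

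No member's allelic ratio was called as changed in a clone: edgeR called 0 of 14 tests and 0 had an unadjusted p under 0.05, against 632 of 75565 tests over all genes (0.836%). The 3 smallest p were those of Col4a1 in d3 clone 12 (log2 -0.71, SE 0.470), i10 clone 18 (-1.34, SE 0.931) and d3 clone 21 (-0.53, SE 0.491), with adjusted p of 1.00 each. Gata4 and Sox7, which lie on chromosome 14, had too few counts for that test, yet they stood apart in d3 clone 21. There 0 of 21 Gata4 counts and 0 of 4 Sox7 counts were from 129S1, which allows shares of up to 14.3% and 75.0%. In the other 22 libraries 191 of 447 Gata4 counts (42.7%) and 98 of 106 Sox7 counts (92.5%) were from 129S1. In d3 clone 21 the main allelic fit called 368 of 10795 genes (3.41%), 354 of them with a lower ratio of 129S1 to CAST. A filter of 5 counts per allele called 0.792% of tests over all genes and clones. Gata4 was then tested and called in d3 clone 21 (log2 -5.97, SE 1.61, adjusted p = 0.0448). That value is fitted against an allele at 0 and is no bound. With the filter of 10 counts over both alleles, which called 0.677% of all tests, Gata4 was tested and not called (log2 -5.96, SE 1.65, adjusted p = 0.0545).

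The other genes of chromosome 14, taken as a sum, also had a lower 129S1 share in d3 clone 21 but kept 129S1 counts. Their summed 129S1 share was 26.5% and 24.9% in the d3 clone 21 libraries and 51.9% to 55.7% in the other 22. Total Gata4 in d3 clone 21 (1.07 and 0.682 CPM) overlapped that of d3 clone 12 (0.860 and 1.17), in which both alleles were counted. It lay above that of d3 parental (0.579 and 0.515), but the log2 difference of 0.66 (SE 0.793, edgeR adjusted p = 0.9999) was not called. Sox7 in d3 clone 21 had 0.328 and 0 CPM, against 0.331 and 0.269 in d3 clone 12.

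**Figure D5:**
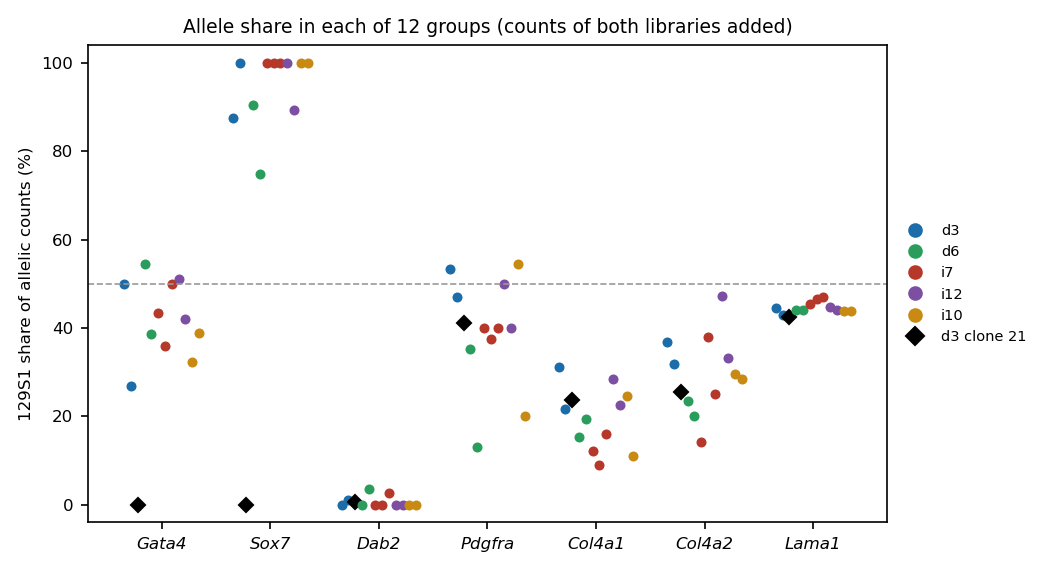
Share of 129S1 among allelic counts (percent) for 7 genes in each of 12 groups, counts of both libraries added, with d3 clone 21 as black diamonds and a dashed line at 50%. Dab2 lies at or below 3.51% in every group, Sox7 between 75.0% and 100% in all groups except d3 clone 21, and d3 clone 21 is at 0% for both Gata4 and Sox7.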

How the data were processed

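The table holds raw counts per gene that the authors deposited for 24 libraries, split into reads assigned to the 129S1 and the CAST allele (2 columns per library). STAR, SAMtools and the build mm10 are named in the submitters' processing notes. Their versions, the counting tool, its strand setting and the treatment of reads without a variant are not given in the sources used here. Of 48985 identifiers, 48838 matched GENCODE M21, and the unmatched held 0.0148% of counts.

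Counts of both alleles were added, and samples were grouped by title into 12 groups of 2. The members, the gene lists and the comparisons were chosen with earlier results of these data known. Totals of 3286819 to 15581094 counts per library set the precision. Genes were tested with edgeR 4.0.16 in R 4.3.3: TMM scaling (factors 0.937 to 1.04), filterByExpr (16253 genes kept), 1 coefficient per group over all 24 libraries (12 residual degrees of freedom, common biological coefficient of variation 0.246), quasi-likelihood F tests and Benjamini-Hochberg adjustment over all genes tested, called at 0.05. Each p-value rests on the spread between duplicates. A standard error is the absolute log2 change divided by the square root of F. Replicate numbers were tested with 1 term per recombination. Allelic ratios were tested with library terms plus 1 allele term for each group, on the 10795 genes that averaged 10 or more counts on each allele. CPM is counts over the TMM-scaled library size. Exon lengths are the union of GENCODE M21 exons. All 10 members are named. Folds and tests are given for every called member test and otherwise for the 3 smallest p of a comparison family, and from each list at most 4 called genes, or the 2 highest per length, are named. The scripts were tested on simulated data. Alternatives were DESeq2 1.42.0 tests, its size factors, other filters, single alleles, fewer libraries, a replicate term, and leaving out each library.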

Additional observations from a re-analysis of the deposited data

Results flagged for a closer look

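The difference between the libraries numbered 2 and 1 was not the same in all 5 recombinations for 3 members, by a joint edgeR test of the replicate terms against each other. Over all genes, 4017 of 16253 (24.7%) passed the same test. For Dab2, the endocytic adaptor, the adjusted p was 0.00753, with log2 differences of -1.61 in d3, -2.07 in d6, -1.76 in i12, -0.58 in i10 and 0.59 in i7. For Gata4 it was 0.0382, with log2 differences of 1.97 in i10 (SE 0.452) and 1.38 in i12 (SE 0.451), against -0.08 in d3, -0.11 in d6 and 0.14 in i7. Gata4 was thus higher in the library numbered 2 of all 4 i10 and i12 groups, with 2.10 and 6.95 CPM in i10 parental and 1.21 and 6.12 in i10 clone 18. For Col4a2 it was 0.0425, with log2 differences of -1.08 in d6 (SE 0.294) and 0.76 in i12 (SE 0.382). What the replicate numbers stand for is not given in the sources used here.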

How the results depend on the processing

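Of clones against parental lines, 0 members were called under every alternative run. Alternatives other than leaving out a library called 0.0149% to 0.927% of such tests over all genes. Joint calls among parental lines numbered 4 with DESeq2 tests, 5 with no filter on low counts and 0 with only the parental libraries, and 1 to 2 when each library was left out in turn. Pairs of parental lines gave 11, 13 and 1 calls under the same 3 settings, 1 with CAST counts alone and 3 with 129S1 counts alone, and 1 to 4 without single libraries. Of all genes, the joint test called 15.5%, 11.9% and 0.573% under those 3 settings. Tests of pairs over all genes were called in 4.57%, 3.51% and 0.267%. That share was 1.29% with CAST counts alone and 1.6% with 129S1 counts alone. Clones of a recombination gave 1 call (Dab2) with no filter, against 0.392% of all tests. Replicate numbers gave 2 to 5 calls without single libraries. In the main fit of replicate numbers, 46.2% of all genes were called. With an average of at least 30 counts on each allele, where only Lama1 was tested, the allelic ratio in parental lines gave 1 call. With 10 over both alleles, a filter chosen after seeing the data, it gave 4. Both settings called 71.3% of all genes. The allelic change in clones gave 1 call when the average had to reach 5 on each allele, against 0.792% of all tests. None of the called differences above, or of the 3 with the smallest p where none was called, changed sign in these alternatives. Over all members, 30 of 913 differences changed sign in 11 alternatives other than leaving out a library, 0 of them called in either fit. Among these, Col4a2 in d6 against i12 parental went from -0.06 to 0.49 with CAST counts alone. Gata4 in d6 against i10 parental went from -1.05 to 0.20 with the replicate block. For pairs of parental lines, that block compares the levels fitted for the libraries numbered 1, so the 2 values do not measure the same difference. Where fits with fewer libraries or genes differ, the cause was not tested.

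The labels give each group replicates 1 and 2 without saying what a number shares. Deviations of same-numbered libraries from their group means correlated at 0.358 to 0.688 within a recombination (9 pairs of groups) and at -0.205 to 0.603 between recombinations (57 pairs). With a replicate block, differences between parental lines are those of the levels fitted for the libraries numbered 1, not of line means. Tests within a recombination are not affected by this. That fit called 5 members jointly among parental lines (Gata4, Dab2, Col4a1, Col4a2 and Lama1) and 42.3% of all genes. It called 22 of 70 pairs (15.9% of all tests), 1 of 14 tests between clones (Dab2, adjusted p = 0.00490; 4.93%) and 0 of 49 against parental lines (0.927%). Its pairs include Col4a2 in d6 against i7 (adjusted p = 0.000643) and Lama1 in d3 against i7 (0.000175).
Low counts limit Gata6, Sox17 and Foxa2 (21, 29 and 2 in all), and with them Sox7 and Pdgfra, where Pdgfra at a log2 difference of 1.95 (SE 0.769) and Sox7 at -1.84 were not called.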
